A study of Mus musculus with 6 samples.

Results

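The clustered protocadherins are cell-surface adhesion proteins of neurons encoded by 3 neighbouring gene clusters, alpha (Pcdha), beta (Pcdhb) and gamma (Pcdhg), on mouse chromosome 18. Members were all rows of the deposited gene tables whose symbol begins with Pcdha, Pcdhb or Pcdhg followed by a number, or by a, b or c and a number. The rule found 24 rows of 41388, of which 22 were beta genes, 1 stood for the alpha cluster and 1 for the gamma cluster. RNA came from EGFP-positive cells sorted by flow cytometry from dorsal root ganglia, the sensory ganglia beside the spinal cord, at spinal levels T11 to S1 of C57BL/6 embryos collected at 18.5 dpc, days after coitum. There were 3 female libraries (A, B and C) and 3 male libraries (A, C and D), and all of them carried a Ret-EGFP reporter, which was built to mark cells that express the receptor tyrosine kinase Ret. Pools of 60 ganglia from 3 embryos gave female A and male A, 20 ganglia from 1 embryo gave each of female B and C, and 40 ganglia from 2 embryos gave each of male C and D. The genotype label reads Tg(Ret-EGFP)SJ, whereas the series description has EGFP knocked into 1 Ret allele, so the number of intact Ret alleles is not settled. No library without the reporter and no EGFP-negative fraction was analysed here, and sex was the only contrast tested. The numbers of ganglia and embryos per pool also differed between the sexes, and cannot be fully told apart from sex. The libraries came from different embryos.

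Each clustered protocadherin binds its own kind on a facing cell, and a neuron shows a combination of isoforms that helps its branches to recognise and avoid each other. In alpha and gamma, a large variable exon with its own promoter encodes the extracellular and membrane-spanning part, and it is spliced to constant exons that encode a cytoplasmic end shared by the whole cluster. A beta gene is a variable exon alone and has no constant region. In most neurons studied a promoter is chosen with the help of the DNA-binding factor CTCF and the cohesin complex, while the C-type isoforms at the end of the alpha and gamma clusters (Pcdhac1, Pcdhac2, Pcdhgc3, Pcdhgc4 and Pcdhgc5) are expressed more uniformly. In mice, loss of the gamma cluster causes death of spinal interneurons, and loss of alpha disturbs the targeting of axons of olfactory sensory and serotonergic neurons.

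The annotation behind the files decides what can be read from each cluster. The alpha row (ENSMUSG00000007440, GRCm38 chromosome 18, 36930285 to 37187657, plus strand, given the symbol Pcdha11 by the name table) joined 9 variable exons and the 3 constant exons in 24670 bp of exon. Those variable exons belong in GENCODE M21, a later annotation of the same build, to Pcdha1, Pcdha2, Pcdha4, Pcdha9, Pcdha12, Pcdhac1, Pcdhac2 and a pair of genes both named Pcdha11. The gamma row (ENSMUSG00000023036, 37674335 to 37841873, plus strand, given the symbol Pcdhgc4) likewise joined 9 variable and 3 constant exons in 26094 bp, and its variable exons are those of Pcdhga3, Pcdhga8, Pcdhga9, Pcdhga11, Pcdhga12, Pcdhgb6, Pcdhgc3, Pcdhgc4 and Pcdhgc5. The variable exons of 5 other alpha and 13 other gamma genes lay outside these rows, so reads over them were counted in neither, although their transcripts still contribute through the constant exons. Each row therefore measured its cluster as a whole, with the C-type isoforms inside it, and neither the isoforms nor the C-type share could be separated. They are called the Pcdha cluster and the Pcdhg cluster below, whatever their symbols. The 22 beta genes, from Pcdhb1 (37264998) to Pcdhb22 (37521419), each had a row of 1 exon between 2340 and 7131 bp, as the map of exons shows. By blastn, no beta transcript gave an alignment of at least 150 bp with at least 95% identity overall to a gene elsewhere. Near-identical stretches inside longer and less similar alignments were not searched for, so reads shared between beta genes remain possible.

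**Figure D1:**
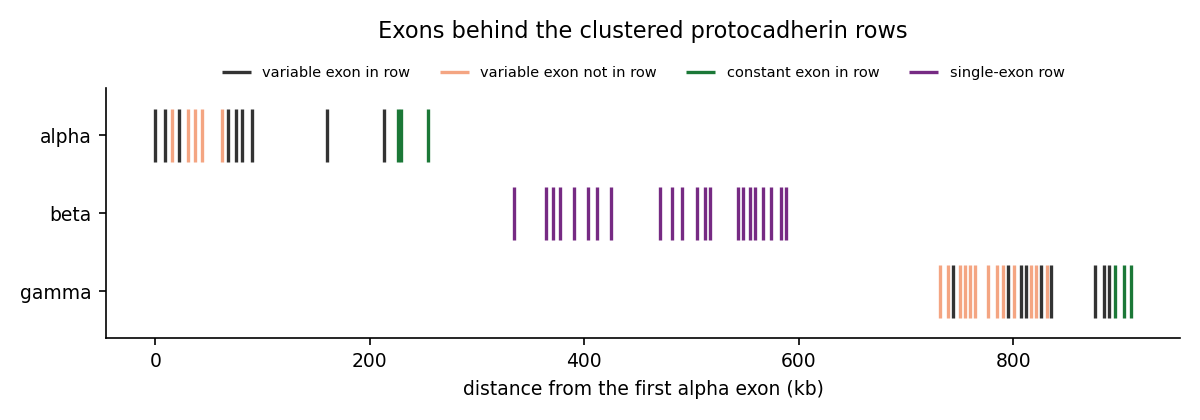
Exons of the alpha, beta and gamma clusters along chromosome 18, by distance in kb from the first alpha exon; colours mark variable exons inside the row counted, variable exons outside it, constant exons and the rows of 1 exon of the beta genes. The alpha and gamma rows each hold 9 variable and 3 constant exons, while 5 alpha and 13 gamma variable exons lie outside them and all 22 beta genes have rows of their own.

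Libraries held between 17861500 and 29330101 counts. Where a gene had no count, a level of up to 3 counts, 0.102 to 0.168 CPM (counts scaled to a common library total), remains possible. Sensory neuron markers were abundant in all 6 libraries, with the summed level of 12 markers between 14430 and 19400 CPM, led by Stmn2 and Tubb3. Markers of satellite glia and Schwann cells summed to 1186 to 2526 CPM over 10 genes, led by Fabp7 and Apoe. Those of fibroblasts and meninges summed to 576 to 2879 CPM over 8 genes, led by Dcn and Col1a2. Endothelial and pericyte markers (8 genes, led by Rgs5 and Pdgfrb) reached 43.4 to 104 CPM, red blood cell markers (6 genes, led by Hbb-bs and Hbb-bt) 10.2 to 55.9 CPM, and macrophage markers (7 genes, led by C1qb and Lyz2) 1.23 to 4.70 CPM. Of these lists no marker was at 0 in every library. Between the sexes, edgeR's quasi-likelihood test with Benjamini-Hochberg adjustment called 0 genes of any of these lists. Unadjusted p was under 0.05 for 3 of 12 tested sensory, 2 of 10 glial, 4 of 8 fibroblast, 2 of 8 endothelial, 1 of 2 macrophage and 0 of 5 red blood cell markers, beside 4.42% of all tested genes. Without male A these counts were 2, 0, 1, 1, 0 and 0 in the same order, beside 3.39% of all tested genes. The highest glial, fibroblast, endothelial and macrophage sums were all those of male A. This library also stood apart across all genes, with correlations of log2 CPM to the others between 0.933 and 0.945, against 0.966 to 0.982 between other pairs. The library labelled male C held 58.9 CPM of Xist, the transcript of the inactive X chromosome, against 111 to 197 CPM in the female libraries and at most 0.575 CPM in the other male libraries, together with 57.1 CPM of Y-linked Ddx3y. The main differences below are therefore also given without male A and without both of these libraries. Without both, male D is the only male library, so such a fit compares the female libraries with male D alone. For some differences the library labelled male C was also left out by itself.

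All 3 clusters were expressed, and together they took 0.0706% to 0.105% of all counts. The Pcdha cluster, whose products share a cytoplasmic end that binds the actin-regulating WAVE complex, had 447, 599 and 427 CPM in female A, B and C and 213.5, 323 and 455 CPM in male A, C and D. Female B was highest and male A lowest, and male D lay inside the female range, so the sexes overlapped. The Pcdhg cluster had 334, 273 and 340 CPM in female A, B and C and 288, 354 and 267 CPM in male A, C and D. It was the steadier of the pair, with a coefficient of variation of 12.2% over 6 libraries against 31.9% for the Pcdha cluster. The beta genes summed to 258, 216 and 260 CPM in female A, B and C and to 157, 216 and 243 CPM in male A, C and D, where male A alone fell below every female library. By CPM the Pcdha cluster stood at percentile 97.4 and the Pcdhg cluster at percentile 96.1 of the 14958 genes tested below, although each is a sum over many transcripts.

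**Figure D2:**
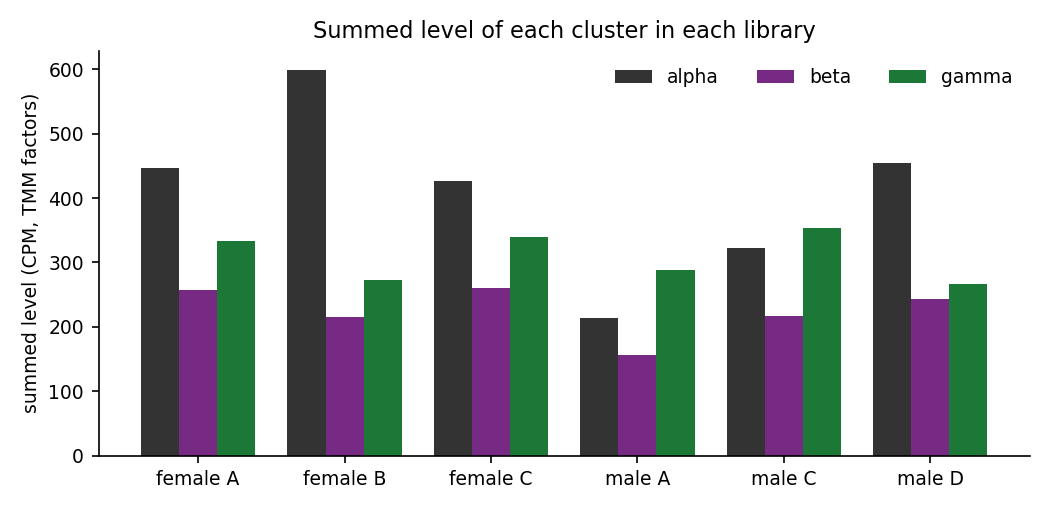
Summed level of the alpha, beta and gamma clusters, in CPM with TMM (trimmed mean of M values) factors, in each of 3 female and 3 male libraries; each bar is 1 library. Alpha is the highest bar in female A, female B, female C and male D, while gamma is the highest in male A and male C.

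As shares of all clustered protocadherin counts, alpha took 42.6% ± 8.03, gamma 33.6% ± 7.06 and beta 23.9% ± 2.06 (SD, n = 6). The beta share moved least, with 24.8%, 19.8% and 25.4% in female A, B and C and 23.8%, 24.2% and 25.2% in male A, C and D. Alpha and gamma traded places instead. The ratio of alpha to gamma counts was 1.34, 2.19 and 1.26 in female A, B and C and 0.741, 0.911 and 1.71 in male A, C and D, so that alpha exceeded gamma in 4 of 6 libraries. Male A and the library labelled male C, the pair below 1, are also those that stand apart or go against a label. The order of the clusters depends on the length by which counts are divided. Per kb of exon that no other row shares, beta held 66.7% ± 2.78, alpha 19.6% ± 4.52 and gamma 13.7% ± 2.70 (SD, n = 6), because many alternative variable exons enlarge the alpha and gamma rows. Per kb of 1 transcript (the mean variable exon plus the constant exons, 5283 bp in alpha and 4783 bp in gamma), alpha held 37.1% ± 7.52, gamma 32.2% ± 6.41 and beta 30.6% ± 2.29. This second length follows how the transcripts are built and was chosen after the data were seen; on that scale the ranges of mean ± SD of the clusters overlapped. Reads of the alpha and gamma exons outside the rows are missing from every version. This concerns 5 of 14 alpha and 13 of 22 gamma genes, whose transcripts were counted over the constant exons alone. The loss may thus differ between alpha and gamma, and its size was not measured.

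Among the beta genes, 21 of 22 were detected in every library, with 27 to 872 counts each. Pcdhb1, the first gene of the cluster, had 0 counts in all 6 libraries, which allows up to 0.102 to 0.168 CPM in a library and up to 0.0229 CPM over all 130850743 counts. Because levels of different genes compare only per length, beta levels below are CPM per kb of exon. Some rows are shorter than the longest GENCODE M21 transcript: 3438 against 8695 bp for Pcdhb14 and 3269 against 4660 bp for Pcdhb17. For Pcdhb9 both were 3055 bp. Reads beyond a row were not counted for it, and evenness of coverage was not tested. Pcdhb9 had the highest mean. It had 10.0, 7.95 and 9.65 CPM per kb in female A, B and C and 6.79, 9.03 and 10.3 CPM per kb in male A, C and D. Pcdhb20 had 6.94, 8.55 and 9.38 CPM per kb in female A, B and C and 5.02, 7.26 and 8.57 CPM per kb in male A, C and D. For both genes the lowest library was male A, and the other 2 male libraries lay inside the female range or, for Pcdhb9 in male D, slightly above it. Pcdhb17 had 8.64, 6.68 and 7.55 CPM per kb in female A, B and C and 3.67, 5.98 and 6.83 CPM per kb in male A, C and D. Pcdhb7 had 5.75, 5.21 and 7.24 CPM per kb in female A, B and C and 5.32, 5.74 and 7.48 CPM per kb in male A, C and D. Pcdhb17 was again lowest in male A, whereas Pcdhb7 was lowest in female B, with male A next.

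These 4 genes were the highest in 6 of 6 libraries, and no other beta gene entered the set. Over the 6 libraries they averaged 8.96 ± 1.35 CPM per kb for Pcdhb9, 7.62 ± 1.56 for Pcdhb20, 6.56 ± 1.68 for Pcdhb17 and 6.12 ± 0.984 for Pcdhb7 (SD, n = 6). The next gene, Pcdhb8, averaged 3.27 ± 0.550 CPM per kb. That step was the only one among neighbours in the order that exceeded their spread: in 19 of 20 adjacent pairs the ranges of mean ± SD overlapped. Below it followed Pcdhb21 at 3.00 ± 1.01, Pcdhb13 at 2.85 ± 0.674 and Pcdhb16 at 2.50 ± 0.882 CPM per kb. A long middle of 11 genes came next, which ran without a break from Pcdhb14 at 2.25 ± 0.70 to Pcdhb6 at 1.27 ± 0.373 CPM per kb. The lowest detected genes were Pcdhb15 at 0.906 ± 0.197 and Pcdhb2 at 0.661 ± 0.109 CPM per kb. Pcdhb9 stood 13.5-fold above Pcdhb2. Against the deposited lengths of all 14958 tested genes, Pcdhb9 reached percentile 67.0 and Pcdhb2 percentile 16.2, so even the highest beta gene was a transcript of middling level in these pooled cells. In bulk RNA, few cells with much of a transcript and many cells with little cannot be told apart, nor can fewer cells of a type and less RNA per cell.

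**Figure D3:**
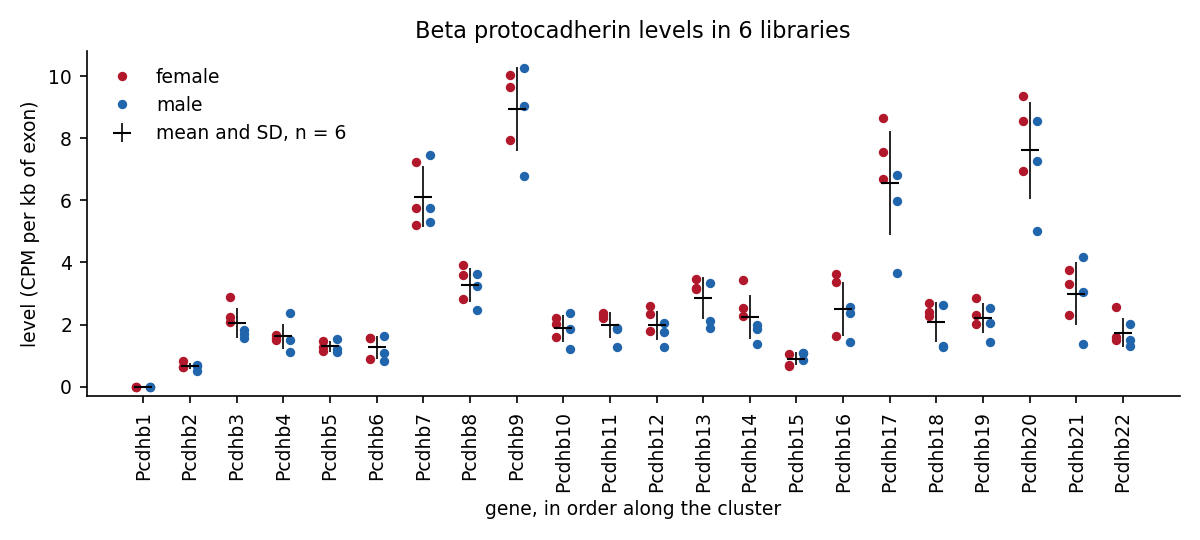
Level of each beta gene in CPM per kb of exon, in order along the cluster; each point is 1 library (female left, male right of each mean), and the black bars give mean and SD over 6 libraries. Pcdhb9, Pcdhb20, Pcdhb17 and Pcdhb7 stand above the other genes, and Pcdhb1 lies at 0 in all 6 libraries.

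Pcdhb9, Pcdhb20, Pcdhb17 and Pcdhb7 made up 44.2%, 47.0% and 46.6% of the summed beta level per kb in female A, B and C and 46.7%, 45.9% and 49.3% in male A, C and D. The mean was 46.6% ± 1.65 (SD, n = 6), so this share was close to constant although the summed beta level ranged from 157 to 260 CPM. Across the 21 detected genes, log2 levels per kb of any pair of libraries correlated with Pearson's r between 0.866 and 0.952 over 15 pairs of libraries; the points share gene length and sequence composition, and genes are not independent replicates. Male A, with the lowest beta sum, kept the same leading genes, though there Pcdhb7 stood above Pcdhb20 and Pcdhb17. The level followed neither position nor length closely. Spearman's rho was 0.37 between a gene's place in the cluster and its level per kb, and 0.24 between its length and its level per kb, both over 21 genes of the same libraries. The leading genes were neither neighbours as a set nor all at 1 end: Pcdhb7 and Pcdhb9 flank Pcdhb8, while Pcdhb17 and Pcdhb20 lie toward the gamma side. In GENCODE M21, Pcdhb12 shares 1927 bp with the antisense gene Gm37446, which has no row in the files, and Pcdhb21 shares 443 bp with Pcdhb22. The strand setting of the counting is not given, so reads of Gm37446 may count for Pcdhb12. The rows of Pcdhb21 and Pcdhb22 do not overlap, so reads of Pcdhb22 over the shared stretch would count for Pcdhb21. Those 3 levels are therefore uncertain.

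**Figure D4:**
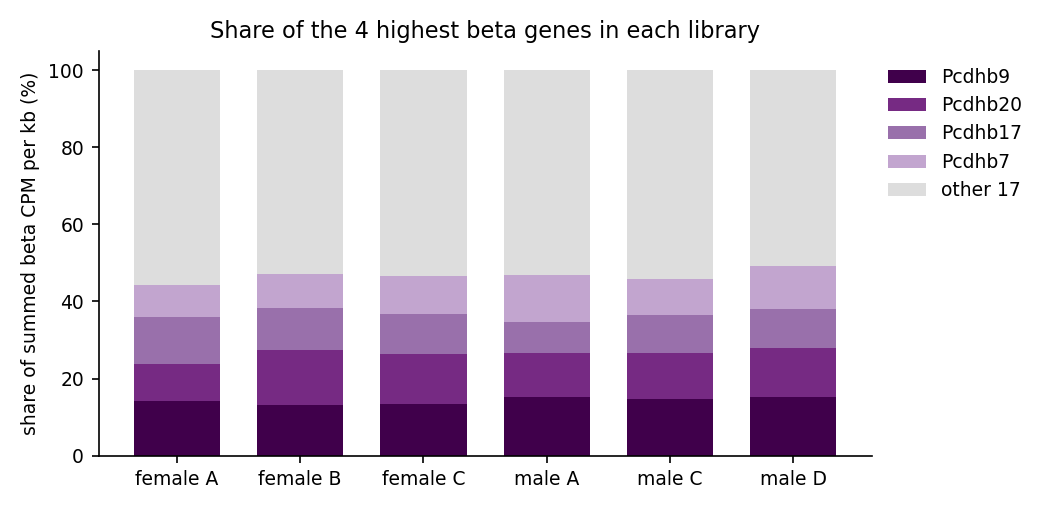
Share of the summed beta level per kb held by Pcdhb9, Pcdhb20, Pcdhb17, Pcdhb7 and the other 17 detected beta genes, in percent, in each of 3 female and 3 male libraries; each bar is 1 library and adds to 100%. The 4 leading genes together hold between 44.2% (female A) and 49.3% (male D).

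Female and male libraries were then compared gene by gene with edgeR's quasi-likelihood test and Benjamini-Hochberg adjustment over 14958 tested genes. Of the 24 members 23 could be tested, Pcdhb1 being without counts, and 0 of 23 passed the adjusted threshold of 0.05, where 4 genes in all (0.0267%) did, every one of them lower in females. At an unadjusted p under 0.05, edgeR called 0 of 23 members, against 4.42% of all tested genes. After adjustment DESeq2 called 0 members beside 0.0869% of all tested genes, and limma voom called 0 beside 0.00669%. At an unadjusted p under 0.05 DESeq2 called 1 member, Pcdhb14, beside 5.68% of all tested genes, and limma voom called 0 beside 4.49%. The smallest adjusted p of any member was 0.961 by edgeR, 0.865 by DESeq2 and 0.987 by limma voom. The intervals were wide: the member with the most even counts, the Pcdhg cluster, had a log2 difference of 0.06 (SE 0.20, 95% interval -0.39 to 0.50, adjusted p = 0.994 by edgeR). It averaged 316 ± 36.9 CPM in the 3 female libraries and 303.0 ± 45.7 CPM in the 3 male libraries (SD).

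The Pcdha cluster averaged 491 ± 93.9 CPM in the 3 female libraries and 330.3 ± 121 CPM in the 3 male libraries (SD). Its log2 difference was 0.57 (SE 0.28, 95% interval -0.07 to 1.21, adjusted p = 0.961 by edgeR's quasi-likelihood test with Benjamini-Hochberg adjustment), and 1 male library lay inside the female range. The difference was 0.34 without male A, 0.555 without the library labelled male C and 0.87 without male D. Without male A and the library labelled male C it was 0.10, against male D alone. Female B and female C belong to a second set of records. With that set as a term the difference was 0.44, and such a fit compares female A alone with the male libraries, here and below. Within the first set, female A at 447 CPM lay inside the male range of 213.5 to 455 CPM.

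Of the beta genes, Pcdhb14, Pcdhb3 and Pcdhb11 had all 3 female libraries above all 3 male libraries. These are 3 of 23 tested members, beside 4.18% of all tested genes; 0 of 23 members had all female libraries below all male libraries, beside 3.88% of all tested genes. In either direction the sexes were apart for 8.06% of all tested genes. Pcdhb14 had 11.8, 7.86 and 8.66 CPM in female A, B and C and 6.43, 6.87 and 4.74 CPM in male A, C and D. Its log2 difference was 0.65 (SE 0.29, 95% interval -0.001 to 1.30, adjusted p = 0.961 by edgeR), the largest among the members. It was 0.70 without male A, 0.76 without the library labelled male C and 0.97 with the record set as a term. Without both of these male libraries it was 0.98, against male D alone, the lowest library. The gap between the lowest female and the highest male library was narrow beside the spread within each sex. Pcdhb3 had 7.89, 8.52 and 10.9 CPM in female A, B and C and 5.90, 6.90 and 6.37 CPM in male A, C and D. Its log2 difference of 0.51 was 0.45 without male A, 0.57 without the library labelled male C and 0.51 without both. With the record set as a term it was 0.30. Pcdhb11 had 8.03, 8.57 and 8.36 CPM in female A, B and C and 4.60, 6.77 and 6.66 CPM in male A, C and D. Its log2 difference of 0.47 was 0.31 without male A, 0.56 without the library labelled male C and 0.31 without both. For Pcdhb3 and Pcdhb11 the adjusted p by edgeR was 0.961. Pcdhb15 went furthest the other way, with 1.96, 1.83 and 2.95 CPM in female A, B and C and 2.40, 3.04 and 3.02 CPM in male A, C and D. Its log2 difference was -0.33 (SE 0.36, adjusted p = 0.972 by edgeR), female C lay among the males, and the gene had at most 96 counts in a library. The difference was -0.57 without female C and -0.20 without female B. Pcdhb4, next in that direction by p, had a log2 difference of -0.08 and changed sign without male D (0.26).

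No difference passed the test, but most had the same sign. The log2 difference was above 0 for 20 of 23 members, with a median of 0.24, against 7405 of 14958 tested genes and a median of -0.004; the exceptions were Pcdhb4, Pcdhb7 and Pcdhb15. The members share 6 libraries and are not independent of each other. Male A had the lowest level of 14 of the 21 detected beta genes and of the Pcdha cluster. Above 0 were 16 of 23 differences without male A and 19 of 23 without the library labelled male C. Without both, with male D as the only male library, 13 of 23 were. With plain library totals in place of TMM factors, which shifts the median of all genes by -0.11, 16 were above 0 and 20 were above the shifted median of all genes. The highest fibroblast marker sum, 2879 CPM against 576 to 677 CPM in the other 5 libraries, and the highest glial sum, 2526 CPM against 1186 to 1316 CPM, were those of male A. Sensory neuron markers summed to 14590 CPM in male A, inside the range of the other libraries (14430 to 19400 CPM), but 8 of the 12 were lowest in male A: Pou4f1, Stmn2, Elavl3, Elavl4, Snap25, Scn10a, Prdm12 and, level with the library labelled male C, Isl1. The part of these cell-type differences in the low protocadherin levels of male A was not tested.

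**Figure D5:**
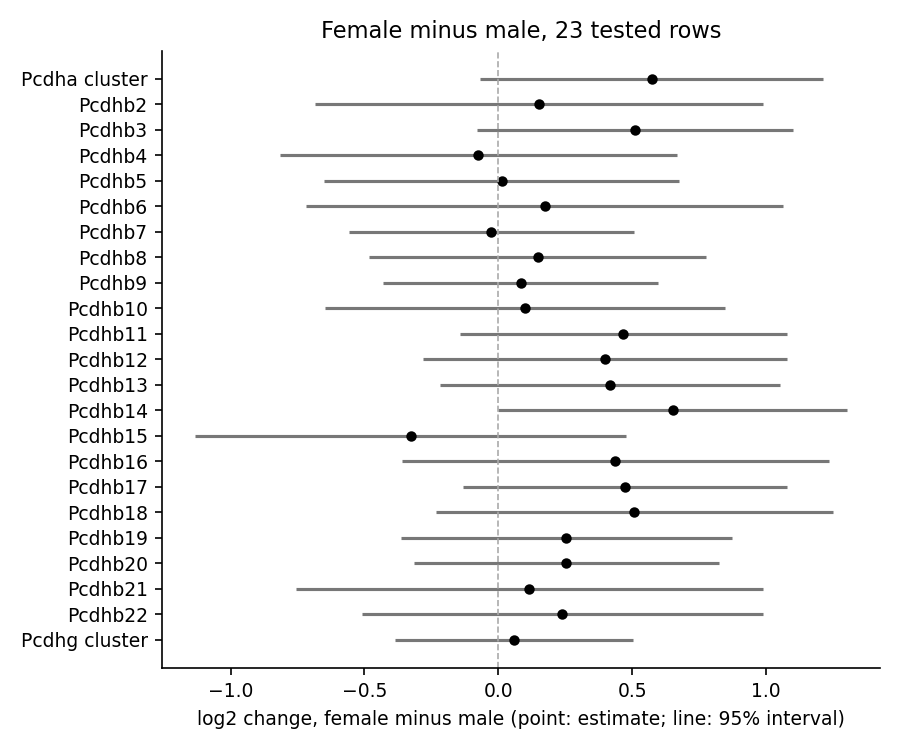
Log2 difference, female minus male, of the 23 tested members; points are edgeR estimates and lines 95% intervals, with 3 libraries per sex. The intervals of all 23 members include 0, and 20 points lie above 0.

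The spread between libraries of the same sex was set beside that of other genes, by an estimate that edgeR draws toward a trend over all genes. Closeness to other genes is therefore partly built in, and whether the members' own spread differs was not tested. The biological coefficient of variation, edgeR's estimate of the spread between libraries beyond counting noise, had a median of 28.0% over the 23 tested members and 28.3% over all tested genes. It ran from 20.1% for the Pcdhg cluster to 35.9% for Pcdhb6, a gene with 39 to 127 counts per library.

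Genes that set or read out protocadherin choice were detected, at widely different levels. Of 18 tested genes of promoter choice and chromatin, 0 passed the adjusted threshold by edgeR in either direction and 2 had an unadjusted p under 0.05, Tet2 and Dnmt3a, beside 4.42% of all tested genes. Without male A Tet2 alone did. Without male A and the library labelled male C, the log2 differences against male D alone were 0.65 for Tet2 and 0.27 for Dnmt3a. The median log2 difference of the list was -0.01, beside -0.004 over all tested genes. Ctcf, which binds at the variable promoters and their enhancers, averaged 34.3 ± 3.10 CPM over 6 libraries (SD). The cohesin subunits Smc1a, Rad21 and Smc3 averaged 152 ± 40.1, 87.3 ± 22.6 and 82.2 ± 31.6 CPM. Dnmt3a, a de novo DNA methyltransferase, averaged 123 ± 11.7 CPM in the 3 female libraries and 89.8 ± 13.8 CPM in the 3 male libraries (SD), with a log2 difference of 0.46 and an adjusted p of 0.961 by edgeR. Its relative Dnmt3b, the enzyme that methylates variable promoters in early mouse embryos, was at 0.596 ± 0.352 CPM over 6 libraries. Its lowest level, 0.166 CPM in female B, was close to the limit of 3 counts there (0.153 CPM). Tet2, an enzyme that oxidises methylated cytosine, had 32.8, 41.8 and 44.6 CPM in female A, B and C and 22.8, 25.9 and 25.1 CPM in male A, C and D. All 3 female libraries were above all 3 male libraries, as in 4.18% of all tested genes, but the adjusted p was again 0.961 by edgeR. The log2 difference was 0.69, and 0.41 with the record set as a term, where female A is the only female library compared.

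Of 12 kinases and signalling partners, 0 passed the adjusted threshold by edgeR. Unadjusted p was under 0.05 for 0 of 12, beside 4.42% of all tested genes, and the median log2 difference was 0.03. Ret, a kinase reported to bind and phosphorylate alpha and gamma protocadherins, averaged 184 ± 29.0 CPM in the 3 female libraries and 179 ± 31.4 CPM in the 3 male libraries (SD), a log2 difference of 0.04. It lay below the summed alpha and gamma rows by CPM in every library, a comparison that takes no account of length. Marcks, a membrane protein that binds actin and acts downstream of gamma protocadherins in mouse cortical neurons, had 858, 1349 and 1303 CPM in female A, B and C and 797, 183 and 1020 CPM in male A, C and D. The library labelled male C was far below the other 5. Stat3, a transcription factor of cytokine signalling, averaged 247 ± 27.2 CPM and Pdcd10, a scaffold protein, 73.8 ± 24.3 CPM over 6 libraries (SD).

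All 8 subunits and partners of the WAVE complex, which nucleates branched actin and is bound by the alpha cytoplasmic end, were tested. By edgeR 0 of 8 passed the adjusted threshold and 1, Wasf1, had an unadjusted p under 0.05, beside 4.42% of all tested genes, with a median log2 difference of 0.19. Wasf1, the WAVE1 subunit, had 50.5, 108 and 75.2 CPM in female A, B and C and 32.5, 29.5 and 53.6 CPM in male A, C and D, and male D lay inside the female range. Its adjusted p was 0.961 by edgeR (log2 difference 1.02). The difference was 0.53 without male A and the library labelled male C. It was 0.39 with the record set as a term, where female A is the only female library compared. Cyfip2 at 462 ± 112 CPM, Brk1 at 282 ± 60.9 CPM, Abi2 at 177 ± 47.7 CPM and Abi1 at 167 ± 43.8 CPM were the highest members over 6 libraries (SD).

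Of the 7 genes for cleavage of protocadherins at the membrane, 0 passed the adjusted threshold by edgeR. Unadjusted p was under 0.05 for 0 of 7, beside 4.42% of all tested genes, and the median log2 difference was 0.22. Adam10, the protease that sheds the extracellular part, averaged 214 ± 31.4 CPM in the 3 female libraries and 143 ± 71.5 CPM in the 3 male libraries (SD). Its log2 difference was 0.58 (SE 0.33, adjusted p = 0.961 by edgeR). Male D at 223 CPM lay inside the female range of 178 to 233 CPM. Male A had 122 CPM and the library labelled male C 84.6 CPM. The gamma-secretase subunits Ncstn and Aph1b averaged 197 ± 38.0 and 59.9 ± 12.9 CPM over 6 libraries (SD).

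The genes beside the clusters on chromosome 18 gave a local comparison. Of 16, 15 were tested, and by edgeR 0 passed the adjusted threshold. Unadjusted p was under 0.05 for 0 of 15, beside 4.42% of all tested genes, and the median log2 difference was -0.03. The highest were Hars, a histidyl-tRNA synthetase, at 214 ± 28.3 CPM, Ik at 168 ± 29.6 CPM, Zmat2 at 167 ± 23.6 CPM and Ndufa2, a subunit of respiratory complex I, at 124 ± 16.7 CPM (SD, n = 6). Taf7, a subunit of the general transcription factor TFIID whose gene lies between the beta and gamma clusters, averaged 71.1 ± 11.7 CPM in the 3 female libraries and 56.7 ± 4.22 CPM in the 3 male libraries (SD).

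Antisense transcription takes part in alpha promoter choice in neurons studied elsewhere, and 2 antisense rows share exon bases with the members. Gm10545 lies opposite the alpha row with 2790 bp of shared exon and had 5 to 31 counts per library. Gm26672 lies opposite the gamma row with 1647 bp of shared exon. It averaged 8.20 ± 0.565 CPM in the 3 female libraries and 10.2 ± 1.61 CPM in the 3 male libraries (SD). All 3 female libraries were below all 3 male libraries, as in 3.88% of all tested genes, with a log2 difference of -0.32 and an adjusted p of 0.966 by edgeR. Whether these counts come from the antisense strand cannot be told apart from reads of the cluster itself, since no source used here gives the strand setting. Beside the gamma row at 267 to 354 CPM, the antisense row was small.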

How the data were processed

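RNA-seq libraries of sorted EGFP-positive cells from 3 female and 3 male pools of dorsal root ganglia were used, with sex and replicate letter taken from the labels. Subread, of unstated version, aligned the reads to GRCm38.p2 and featureCounts 1.4.5 counted them per gene, per the submitters' processing notes. No source used here gives the settings for strand, multi-mapping or overlapping genes. The authors deposited raw counts per Ensembl gene. CPM values in the deposited tables are counts scaled to a common library total, and the deposited RPKM values are CPM per kb of exon length; both were recomputed, with largest differences of 4.5e-11 and 5.5e-12, and only counts and lengths were used further. Per the labels' protocols, the RNA was amplified from low input, so the limits given for a count of 0 cover counting error only.

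Of 41388 IDs, 40254 matched a symbol. Exons were compared with GENCODE M21 and near-identical alignments found with blastn 2.17.0. Levels are CPM with TMM factors (0.922 to 1.08), and between genes CPM per kb of unshared exon. Female minus male differences came from edgeR 4.0.16 (glmQLFit, glmQLFTest; filterByExpr; sex as the only term) in R 4.3.3, with Benjamini-Hochberg adjusted p under 0.05 as the threshold. DESeq2 1.42.0, limma voom (limma 3.58.1), other normalizations and filters, a record set term, a replicate block and leaving out libraries were alternatives. The members, lists and tests were chosen with earlier results of these data known. Named from each other list were genes past the threshold, Ret, and the 4 members with the highest mean; of marker lists the highest 2; of the clusters any member. A gene that this rule names in the cleavage list is not reported here. Ctcf, Dnmt3b, Tet2, Wasf1, Taf7, the antisense genes and the markers lowest in male A were named after their values were seen. Female B and female C are a second set of records with no male library, so within it no comparison was possible. The planned C-type share could not be computed from rows that merge the isoforms. P-values measure the spread between these pools.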

Additional observations from a re-analysis of the deposited data

How the results depend on the processing

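No member passed the adjusted threshold under any setting tried; its smallest adjusted p was 0.288 without male D and 0.661 with a replicate block. The number of genes called over the whole table, 4, was 14 of 25811 with no filter on low counts, 77 with a replicate block, 0 with record set as a term, 13 by DESeq2, 1 by limma voom and between 0 (without female A) and 5 when each library was left out in turn; the cause was not tested. The block rests on shared letters only: A and C occur in both sexes, the labels do not tie them, and the deviations of same-lettered libraries correlated at -0.08 and 0.05, so no pairing was taken. Under the block the log2 difference (female minus male) was 0.74 for the Pcdha cluster, 0.08 for the Pcdhg cluster and 0.28 for Pcdhb4. Pcdhb4, at -0.08, was also above 0 by limma voom (0.016) and ran from -0.29 to 0.26 when each library was left out. The Pcdhg cluster, at 0.06, was -0.057 with plain library totals and ran from -0.026 to 0.19 when each library was left out. Differences of log2 summed CPM, 0.62 for alpha and 0.27 for beta, were 0.094 and 0.003 without male A and the library labelled male C, and ran from 0.34 to 0.89 and from 0.09 to 0.40 when each library was left out. The shares of counts moved with length as described: alpha 19.6% and 17.96%, beta 66.7% and 68.8%, gamma 13.7% and 13.3% per kb of unshared exon and of deposited length, and beta 30.6% per kb of 1 transcript. Alternatives for the C-type share were not run, since the rows merge the isoforms. With 3 libraries per sex and a common coefficient of variation of 31.1%, small differences could not be resolved, and genes with few counts carry counting error besides.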
